A study of Mus musculus with 15 samples.

Results

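Cells of the mouse macrophage-like line RAW264.7 that received 10 µg of the peptide LCCL for 6 h were set against cells that received 1 µg for the same 6 h. The libraries were chosen by the dose and time in their labels, which gave 6 of the 15 libraries of the series, 3 at 10 µg and 3 at 1 µg. The same doses at 24 h (3 libraries each) and untreated cells (3 libraries) are used here for levels and for the later time. All cells were wild type and carried the same batch number. The labels give each dose as a mass without a volume, name no vehicle or control peptide and state no harvest time for the untreated cells. RAW264.7 is 1 tumour line, and nothing in the labels says that replicates came from separate cultures, so the p-values speak only of how these libraries vary, and that variation may be technical.

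Macrophages read microbial products and tumour necrosis factor (TNF) through receptors that free the transcription factor NF-κB from its inhibitors, the IκB proteins. NF-κB switches on cytokine genes and also genes for new IκB proteins and for enzymes such as A20 that shut the pathway down again. Type I interferon acts through factors that include STAT2 and IRF9 on a large set of interferon-stimulated genes, many of them antiviral, and the protease USP18 limits that signal. RAW264.7 cells make TNF and nitric oxide when activated, and they can become osteoclasts when given RANK ligand.

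Each of the 6 libraries held between 19261460 and 22368924 counts on genes, and 12401 of the 25639 symbols passed the filter on low counts. Levels are CPM, counts scaled to a common library size with TMM factors and not corrected for gene length. A change is the log2 fold change of 10 µg over 1 µg at 6 h ± SE, and a gene was called where edgeR's quasi-likelihood test gave a Benjamini-Hochberg adjusted p under 0.05. The 9 macrophage markers checked (Adgre1, Cd68, Csf1r, Itgam, Lyz2, Cd14, Spi1, Fcgr1 and Tyrobp) were all detected and 0 were called by edgeR, DESeq2 or limma-voom (1, Fcgr1, had an unadjusted p under 0.05), with log2 fold changes from −0.28 for Fcgr1 to 0.06 for Cd14. Of the defining markers of other cell types, 6 of 7 fibroblast, 6 of 7 epithelial, 6 of 9 T cell, 4 of 7 B cell and 6 of 10 neutrophil genes had no count in any of the 6 libraries. Of 9 dendritic cell genes 2 had none, and the list summed to 563 to 592 CPM at 10 µg and 588 to 638 CPM at 1 µg, most of it Ccr9. In bulk RNA, fewer cells of a type and less RNA per cell cannot be told apart.

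The higher dose was set apart by many small differences, most of them upward. At 6 h, 291 genes were called, or 2.35% of those tested. Of these, 230 (1.85% of tested genes) were higher at 10 µg and 61 (0.492%) were lower. The 3 libraries of one dose did not overlap with the 3 of the other for each of the 291 called genes, and for 24.1% of all tested genes. The median log2 fold change was 0.31 among the higher genes and −0.27 among the lower ones, against 0.00020 over all tested genes, and the smallest called size was 0.17. A change of at least 2-fold was reached by 9 of the higher genes and 0 of the lower ones. Together the higher genes took 33597 to 33957 CPM at 10 µg, against 27261 to 27821 CPM at 1 µg and 26320 to 26420 CPM in untreated cells. The lower genes took 8950.0 to 9129 CPM at 10 µg, against 10444 to 10703 CPM at 1 µg and 10752 to 10802 CPM in untreated cells. With 1 of the 6 libraries left out in turn, 111 to 163 genes were called, the fewest without 10 µg replicate 2. Of the 291, 85 passed in all 6 of these fits and 83 in none, and all 291 kept their direction. A fit on the 6 libraries alone called 1044 genes (8.82% of the 11832 tested there), 668 higher and 376 lower, and these included 290 of the 291.

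**Figure D1:**
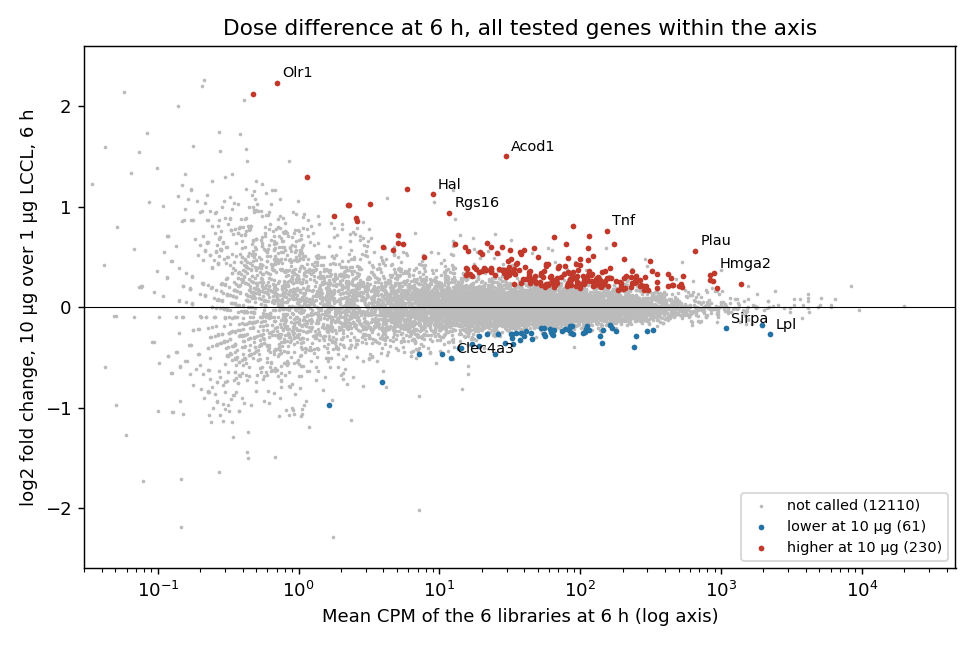
Log2 fold change of 10 µg over 1 µg at 6 h (vertical axis) against mean CPM of the 6 libraries (horizontal log axis), 1 point per tested gene, with genes called higher in red and genes called lower in blue. The 230 higher genes outnumber the 61 lower ones, and 25 genes, 0 of them called, fall outside the axes.

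Genes for IκB proteins were among the genes higher at 10 µg. The 11 tested genes for NF-κB subunits and their inhibitors had a median log2 fold change of 0.20. Of these, 3 were called higher (27.3%, against 1.85% of all tested genes) and 0 lower. All 3 encode IκB proteins: Nfkbiz (IκBζ, a nuclear member that acts at selected target genes), Nfkbie (IκBε) and Nfkbia (IκBα, the classical inhibitor). Of 20 tested feedback enzymes and adaptors, 4 were called higher (20%) and 0 lower, with a median of 0.06. These were Tnfaip3 (A20, a ubiquitin-editing enzyme that ends NF-κB signalling), Tnip1 (ABIN1, an A20-binding adaptor), Zc3h12a (regnase-1, which degrades cytokine mRNAs) and Birc3 (cIAP2, a ubiquitin ligase of TNF receptor signalling). With 1 library left out, 2 to 3 of the first list and 3 to 4 of the second passed. On the 6 libraries alone, 6 and 8 did, against 8.82% of all genes tested there.

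The promoters of Tnfaip3, Nfkbie and Nfkbia are shown because they carry a match to the κB consensus, the sequence that NF-κB dimers bind. They run from 250 bases before to 50 bases after the start in RefSeq's table for GRCm38.p6, an older build than the GRCm39 of the submitters' processing notes. Capitals mark matches to the κB consensus and to the AP-1 element TGANTCA, both searched on both strands.
Tnfaip3: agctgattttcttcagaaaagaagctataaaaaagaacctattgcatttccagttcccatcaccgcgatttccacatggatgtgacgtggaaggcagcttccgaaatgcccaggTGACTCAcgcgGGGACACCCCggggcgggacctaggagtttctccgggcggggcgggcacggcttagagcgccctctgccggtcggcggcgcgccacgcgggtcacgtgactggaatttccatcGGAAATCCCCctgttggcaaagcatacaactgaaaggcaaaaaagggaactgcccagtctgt
Nfkbie: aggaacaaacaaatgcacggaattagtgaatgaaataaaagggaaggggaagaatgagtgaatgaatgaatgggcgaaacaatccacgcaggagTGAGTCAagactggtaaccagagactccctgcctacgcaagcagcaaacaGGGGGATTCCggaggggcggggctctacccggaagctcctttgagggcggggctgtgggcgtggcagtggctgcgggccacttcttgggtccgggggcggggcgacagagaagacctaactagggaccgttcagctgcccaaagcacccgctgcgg
Nfkbia: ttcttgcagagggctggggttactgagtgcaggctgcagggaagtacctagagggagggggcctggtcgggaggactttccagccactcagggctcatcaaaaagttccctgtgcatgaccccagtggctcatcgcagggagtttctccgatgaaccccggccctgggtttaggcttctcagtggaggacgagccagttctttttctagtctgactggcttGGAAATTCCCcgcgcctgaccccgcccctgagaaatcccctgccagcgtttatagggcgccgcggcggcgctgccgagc
The Tnfaip3 window (chr10:19015361-19015660, minus strand) is 1 of its 2 entries and holds κB matches that start 125 and 12 bases before the start site, the first of them beside an AP-1 match that starts at 136 bases. The other Tnfaip3 entry held no match. The Nfkbie window (chr17:45555450-45555749, plus strand) holds 1 κB match at 106 bases and 1 AP-1 match at 156 bases before the start. The Nfkbia window (chr12:55492598-55492897, minus strand) holds 1 κB match at 29 bases before the start. A κB match was found for 33 of the 183 genes called higher that have an entry (18.0%), for 4 of 46 called lower (8.70%) and for 11.9% of tested genes that were not called. Over all promoters in the table the share was 9.55%. Of the 7 called genes of the NF-κB lists 6 had an entry and 4 of these held a κB match, while 13 of the 25 tested members with an entry did. The entries of Zc3h12a and Birc3 held none. The AP-1 element was found for 8.74% of genes called higher, 8.70% of genes called lower, 6.22% of tested genes not called and 8.97% of all promoters. These are matches of letters, not measured binding.

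Nfkbiz had 27.4, 23.9 and 27.9 CPM at 10 µg, against 17.2, 16 and 18 CPM at 1 µg and 16.2, 14.6 and 14.7 CPM in untreated cells. The change was 0.63 ± 0.08 (adjusted p = 6.78e-05), and 2 of the 3 libraries at 1 µg lay above the untreated range. Tnfaip3 had 44.3, 51.1 and 47.7 CPM at 10 µg, against 33.1, 33.6 and 29.7 CPM at 1 µg, with 28.5, 26.9 and 27.1 CPM in untreated cells (0.57 ± 0.07, adjusted p = 5.71e-05). Zc3h12a had 28.9, 32.3 and 29.6 CPM at 10 µg, against 19.4, 21.7 and 21.4 CPM at 1 µg (0.54 ± 0.08, adjusted p = 0.000138). Each of these genes passed whichever 1 of the 6 libraries was left out, as did Nfkbie and Tnip1. Nfkbie averaged 38.4 ± 0.857 CPM at 10 µg and 29.4 ± 0.428 CPM at 1 µg (SD, n = 3 each), and its change was 0.38 ± 0.06, adjusted p = 0.000997. Tnip1 averaged 99.5 ± 7.15 CPM at 10 µg and 78 ± 1.26 CPM at 1 µg (SD, n = 3 each), with a change of 0.35 ± 0.06, adjusted p = 0.000491. The change of Birc3 was 0.30 ± 0.06, adjusted p = 0.00466, and it did not pass without 10 µg replicate 3 (adjusted p = 0.0532). Nfkbia, the most studied of the inhibitors, showed a smaller change of 0.20 ± 0.05, adjusted p = 0.0339, which did not pass whichever 1 of the 6 libraries was left out (adjusted p from 0.0798 to 0.181).

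In the lists of Toll-like receptors and adaptors and of chemoattractant receptors, Irak2, Gpr84 and Ccrl2 were called higher. Of 24 tested Toll-like receptors and adaptors 1 was called higher (4.17%, against 1.85% of all tested genes) and 0 lower, with a median of 0.00081. It was Irak2, a kinase-like adaptor of Toll-like and interleukin-1 receptors, with 81.3, 78.2 and 82.1 CPM at 10 µg, against 64.2, 58.3 and 59.8 CPM at 1 µg (0.41 ± 0.05, adjusted p = 4.75e-05). This gene passed whichever 1 of the 6 libraries was left out. Of 13 tested chemokine and chemoattractant receptors, Gpr84 (bound by fatty acids of medium chain length) and Ccrl2 (a chemerin-binding receptor) were called higher (15.4%). On the 6 libraries alone 3 of the 24 and 5 of the 13 were called, against 8.82% of all genes tested there. Gpr84 had 78.6, 79.9 and 83.9 CPM at 10 µg, against 50, 49.3 and 49.8 CPM at 1 µg, and 45.6, 41.8 and 40.3 CPM in untreated cells (0.70 ± 0.09, adjusted p = 0.000199). The lowest 10 µg library stood above the highest library of both other groups, and the call passed whichever 1 of the 6 libraries was left out. Ccrl2, with 3.52, 3.47 and 3.09 CPM at 10 µg, against 2.19, 1.55 and 1.85 CPM at 1 µg, changed by 0.85 ± 0.19, adjusted p = 0.015 and did not pass without 10 µg replicate 1 or 2 or 1 µg replicate 2 or 3 (adjusted p from 0.0654 to 0.115).

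TNF itself was higher at 10 µg. Tnf had 194, 196 and 194 CPM at 10 µg, against 117, 112 and 116 CPM at 1 µg, and 101, 99 and 100.3 CPM in untreated cells. The 3 libraries of each dose lay close together and far from the other dose, a change of 0.76 ± 0.14. Its adjusted p was 0.0171 in the fit on all 15 libraries, where the spread is shared with the other groups. The call did not pass whichever 1 of the 6 libraries was left out (adjusted p from 0.0554 to 0.0812). Of 15 other fits (scaling, filter, tool or libraries changed), only these 6 lost the call. At 1 µg and 24 h Tnf had 111, 73.2 and 66.3 CPM, and the effect of that spread on the p-value was not tested. The 16 tested TNF superfamily ligands and receptors had a median of 0.14. Of these, 4 were called higher (25%, against 1.85% of all tested genes) and 0 lower. Besides Tnf they were Tnfsf9 (4-1BB ligand), Tnfrsf1b (TNF receptor 2) and Tnfrsf12a (the TWEAK receptor). Their changes were 0.28 ± 0.06, adjusted p = 0.0128 for Tnfsf9, 0.48 ± 0.11, adjusted p = 0.0489 for Tnfrsf1b and 0.40 ± 0.08, adjusted p = 0.00831 for Tnfrsf12a. None of the 3 held throughout: Tnfsf9 did not pass without 10 µg replicate 2 or 3 or 1 µg replicate 1 or 2 (adjusted p from 0.0641 to 0.131), Tnfrsf1b whichever 1 of the 6 libraries was left out (adjusted p from 0.0916 to 0.181), and Tnfrsf12a without 10 µg replicate 3 or 1 µg replicate 2 (adjusted p from 0.0634 to 0.0775). With 1 library left out, 0 to 2 of the 16 passed, and on the 6 libraries alone 7 did (8.82% of all genes tested there). Of the 15 other fits 9 lost Tnfrsf1b, 4 lost Tnfsf9 and 2 lost Tnfrsf12a.

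Several other inflammatory products of macrophages did not pass in the fit on all 15 libraries. Of 16 core activation genes 10 could be tested. Of these, 3 (Acod1, Tnf and Arg1) were called higher, or 30%, against 1.85% of all tested genes. With any 1 library left out 0 were called, and on the 6 libraries alone 6 were, against 8.82% of all genes tested there. Ptgs2 (cyclooxygenase-2) had 16, 15.2 and 14.4 CPM at 10 µg, against 10.6, 8.76 and 10.5 CPM at 1 µg, values that did not overlap but whose log2 fold change of 0.61 ± 0.39 had an adjusted p of 0.605 in the shared fit. Il1rn, the interleukin-1 receptor antagonist, had 177, 188 and 183 CPM at 10 µg, against 114, 133 and 117 CPM at 1 µg (0.59 ± 0.16, adjusted p = 0.0936). Cxcl10, an interferon-inducible chemokine, had 17.3, 18.4 and 17.7 CPM at 10 µg, against 13.2, 14.5 and 15.6 CPM at 1 µg (0.30 ± 0.12, adjusted p = 0.225), and Cd40, a co-stimulatory receptor, had a log2 fold change of 0.67 ± 0.24, adjusted p = 0.165. Of the 15 other fits, 1 called Ptgs2, 4 called Il1rn, 1 called Cxcl10 and 0 called Cd40. At 1 µg and 24 h Ptgs2 had 13.2, 4.06 and 3.1 CPM, and the effect of that spread on the shared fit was not tested. Of the core genes, 4 linked to M1 activation had few or no counts: Nos2 summed to 7 counts over the 3 libraries at 10 µg and 2 at 1 µg, Il1b to 7 and 3, and Il6 and Il12b to 0 at both doses. The M2 genes Retnla and Chil3 had 0 counts at both doses, and Il10 had 9 counts at 10 µg and 23 at 1 µg. A count of 0 allows up to 0.139 to 0.160 CPM in a library (3 counts, counting error only). Of 9 tested chemokines 0 were called at 6 h, although their median log2 fold change was 0.30. Before adjustment 6 passed 0.05, against 1573 of all 12401 tested genes. DESeq2 and limma-voom each called 1, and 5 were called on the 6 libraries alone, against 8.82% of all genes tested there. Ccl4 came nearest (0.38 ± 0.10, adjusted p = 0.0676).

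Acod1, the enzyme that makes itaconate, had the largest change among called genes with at least 5 CPM. It had 43.6, 40.2 and 47.2 CPM at 10 µg, against 17, 13.7 and 15.8 CPM at 1 µg, and 12.5, 12 and 10.2 CPM in untreated cells. Every 10 µg library stood far above the libraries of both other groups, and the fitted change was 1.50 ± 0.28, adjusted p = 0.0199. The call did not pass whichever 1 of the 6 libraries was left out (adjusted p from 0.0571 to 0.0984). Of the 15 other fits, only these 6 lost it. At 1 µg and 24 h Acod1 had 23.4, 11.7 and 8.37 CPM, and the effect of that spread on the p-value was not tested. Hal, histidine ammonia-lyase, which begins histidine breakdown, had 13, 11.4 and 12.5 CPM at 10 µg, against 5.44, 6.45 and 5.03 CPM at 1 µg, and 5.47, 5.61 and 5.07 CPM in untreated cells (1.12 ± 0.12, adjusted p = 4.44e-06). The 1 µg and untreated libraries overlapped, and the call passed whichever 1 of the 6 libraries was left out. The 16 tested genes of immune metabolism and nitric oxide had a median of 0.23. Of these, 5 were called higher (31.25%, against 1.85% of all tested genes) and 0 lower. The others were Sod2 (mitochondrial superoxide dismutase), Arg1 (arginase-1) and Odc1 (the first enzyme of polyamine synthesis). Sod2 had 139, 141 and 142 CPM at 10 µg, against 118, 116 and 115 CPM at 1 µg (0.28 ± 0.05, adjusted p = 0.00306) and passed whichever 1 of the 6 libraries was left out. Arg1 lay at 1.44, 2.04 and 1.4 CPM at 10 µg, against 0.373, 0.7 and 0.899 CPM at 1 µg (1.29 ± 0.34, adjusted p = 0.0444), and did not pass whichever 1 of the 6 libraries was left out (adjusted p from 0.059 to 0.273), nor with DESeq2 (adjusted p = 0.0605). Odc1 changed by 0.39 ± 0.09, adjusted p = 0.0478 and passed in 0 of the 6 fits with a library left out.

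**Figure D2:**
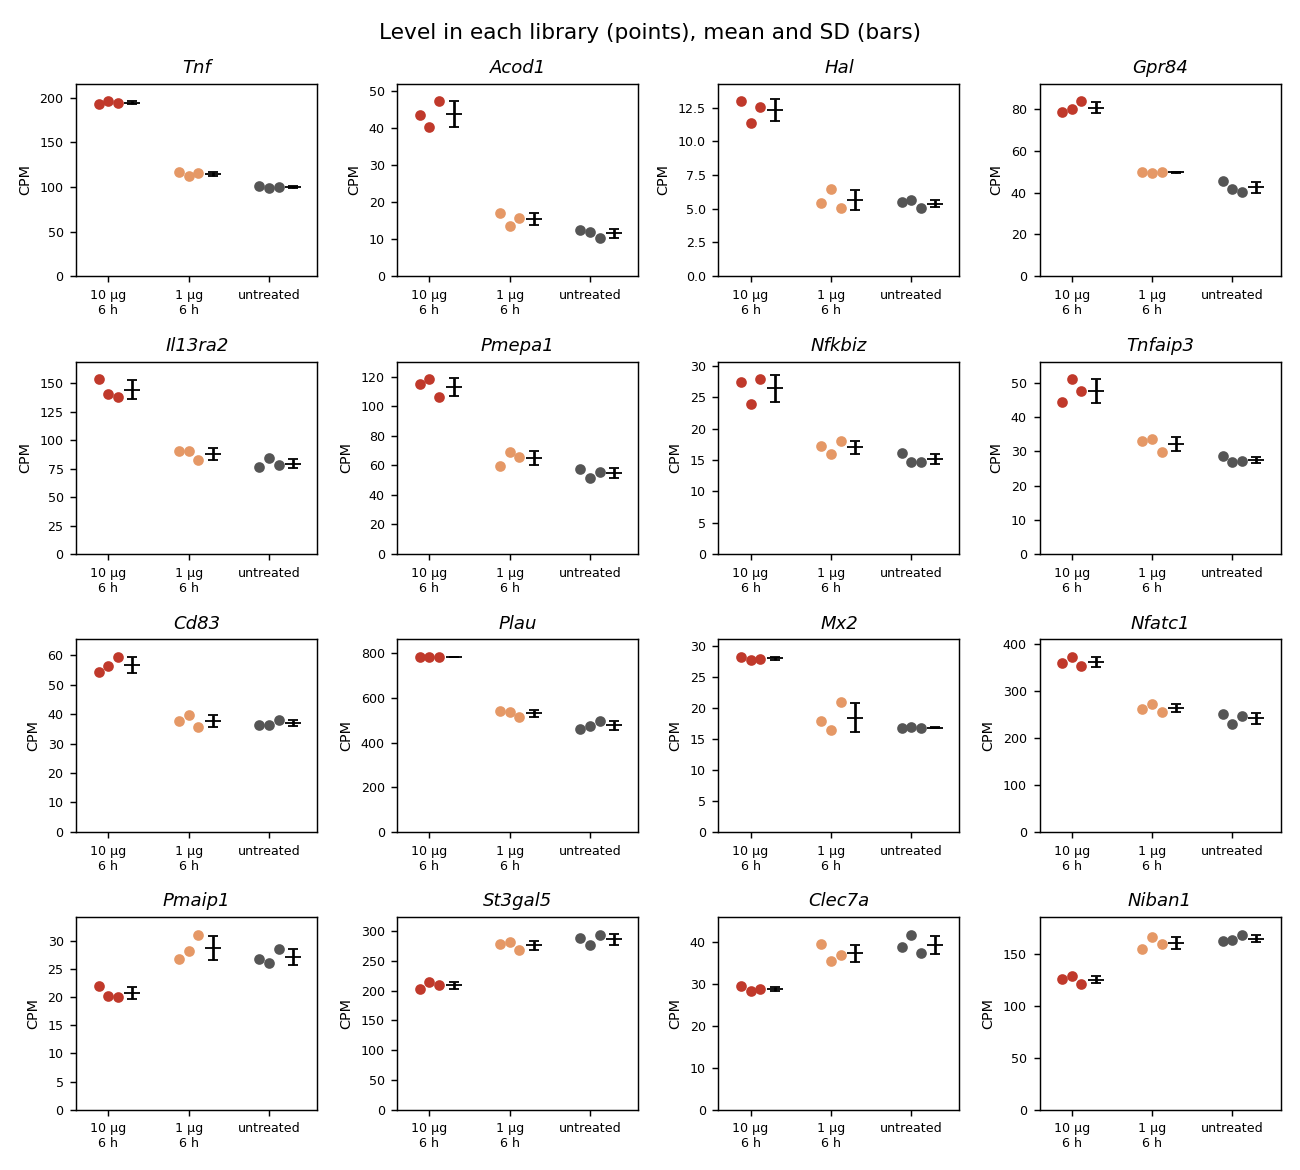
Level in CPM (vertical axes from 0) of 16 genes in each library of 10 µg at 6 h, 1 µg at 6 h and untreated cells; points are libraries, and bars give the mean ± SD (n = 3 each). In the first 12 genes the 10 µg libraries stand above both other groups, and in Pmaip1, St3gal5, Clec7a and Niban1 they stand below.

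Interferon-stimulated genes held the most calls of the 52 gene lists. Of the 57 tested, 19 were called higher (33.3%, against 1.85% of all tested genes) and 0 lower. A log2 fold change above 0 was found for 53 of the 57, against 50.1% of all tested genes, and the median was 0.22. Their libraries did not overlap, with 10 µg above, for 45 of the 57, against 12.7% of all tested genes. The called members were Mx2, Ifit1, Ifit3, Oas1g, Oasl2, Ifi44, Ifi204, Ifi207, Ifih1, Ddx58, Rtp4, Slfn2, Slfn4, Slfn5, Parp9, Parp14, Trim30a, Xaf1 and Tor3a, with changes between 0.21 and 0.60. They include restriction factors of viruses (Mx2 and the Ifit genes), oligoadenylate synthetase family members (Oas1g, Oasl2), ADP-ribosyltransferases (Parp9, Parp14) and the RNA sensors RIG-I (Ddx58) and MDA5 (Ifih1). With 1 library left out, 5 to 10 of the 57 passed, and on the 6 libraries alone 38 did, against 8.82% of all genes tested there. The Slfn, Oas and Ifi200 families hold near-identical copies, between which reads may have been split.

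Mx2 had 28.2, 27.8 and 27.9 CPM at 10 µg, against 17.9, 16.4 and 21 CPM at 1 µg, and 16.7, 17 and 16.8 CPM in untreated cells (0.60 ± 0.09, adjusted p = 0.000322). Its 1 µg libraries reached from below to above the untreated ones, and the 10 µg libraries stood above both. Slfn5, a Schlafen family member, had 149, 143 and 140.2 CPM at 10 µg, against 115, 125 and 113 CPM at 1 µg (0.29 ± 0.05, adjusted p = 0.00293). Slfn2, another Schlafen gene, had 295, 284 and 294 CPM at 10 µg, against 252, 239 and 236 CPM at 1 µg (0.27 ± 0.05, adjusted p = 0.00214). Tor3a, an interferon-inducible torsin, changed by 0.30 ± 0.05, adjusted p = 0.00105. These 4 genes passed whichever 1 of the 6 libraries was left out. Ddx58 changed by 0.28 ± 0.06, adjusted p = 0.00696 and did not pass without 1 µg replicate 3 (adjusted p = 0.0582). Of the 14 tested nucleic acid and NOD sensors, Ddx58, Ifih1 and Ifi204 were called higher (21.4%, against 1.85% of all tested genes). Ifih1 (0.24 ± 0.06, adjusted p = 0.0361) did not pass without 10 µg replicate 1 or 2 or 1 µg replicate 1, 2 or 3 (adjusted p from 0.0916 to 0.162), and Ifi204 (0.33 ± 0.07, adjusted p = 0.0138) did not pass without 10 µg replicate 1 or 3 or 1 µg replicate 2 or 3 (adjusted p from 0.0654 to 0.0986).

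Of the 19 interferon signalling factors tested, 2 were called higher (10.5%, against 1.85% of all tested genes) and 0 lower. Both passed whichever 1 of the 6 libraries was left out. Usp18, which holds back signalling from the interferon receptor, had 86, 89.3 and 93.6 CPM at 10 µg, against 69.3, 70.1 and 63.1 CPM at 1 µg, and 56.7, 62.6 and 69.8 CPM in untreated cells (0.41 ± 0.06, adjusted p = 0.000298). Stat2, a subunit of the factor that binds interferon-stimulated promoters, had 99.1, 94.6 and 97.4 CPM at 10 µg, against 80, 78.8 and 76.9 CPM at 1 µg, and 76, 80.6 and 78.8 CPM in untreated cells (0.31 ± 0.05, adjusted p = 0.000406). The 1 µg libraries of both genes overlapped with untreated cells. Among 13 tested guanylate-binding proteins and immunity-related GTPases, 1 was called higher (7.69%). It was Irgm1, a GTPase of host defence, with 177, 167 and 170.5 CPM at 10 µg, against 145, 139 and 135 CPM at 1 µg (0.29 ± 0.06, adjusted p = 0.00579). It did not pass without 1 µg replicate 3 (adjusted p = 0.0539).

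The promoters of Slfn5, Irgm1 and Ddx58 are shown because they carry the interferon element, GAAA followed by any 2 bases and GAAA, to which factors of the IRF family bind. Capitals mark this element and TGANTCA, searched as above.
Slfn5: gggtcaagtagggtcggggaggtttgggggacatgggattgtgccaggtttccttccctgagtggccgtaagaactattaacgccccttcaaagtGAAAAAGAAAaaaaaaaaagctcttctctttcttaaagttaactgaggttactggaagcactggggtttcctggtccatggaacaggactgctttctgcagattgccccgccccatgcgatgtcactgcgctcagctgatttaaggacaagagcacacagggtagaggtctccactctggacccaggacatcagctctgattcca
Irgm1: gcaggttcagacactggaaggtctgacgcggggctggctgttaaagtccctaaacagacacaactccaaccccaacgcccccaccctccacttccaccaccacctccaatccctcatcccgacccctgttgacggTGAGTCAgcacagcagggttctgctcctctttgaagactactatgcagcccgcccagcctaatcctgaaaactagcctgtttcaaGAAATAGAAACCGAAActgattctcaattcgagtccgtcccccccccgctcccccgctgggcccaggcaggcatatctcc
Ddx58: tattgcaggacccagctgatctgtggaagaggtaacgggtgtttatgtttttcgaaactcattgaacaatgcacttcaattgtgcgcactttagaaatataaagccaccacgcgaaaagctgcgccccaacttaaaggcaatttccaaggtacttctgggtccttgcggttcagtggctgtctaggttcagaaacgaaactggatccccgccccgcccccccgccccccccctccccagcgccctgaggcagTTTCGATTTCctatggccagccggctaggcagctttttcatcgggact
In Slfn5 (chr11:82951852-82952151, plus strand) the element starts 155 bases before the start site. In Irgm1 (chr11:48871371-48871670, minus strand) a pair of overlapping matches starts 30 and 24 bases before the start, and an AP-1 match starts at 115 bases. In Ddx58 (chr4:40239776-40240075, minus strand) the element lies on the opposite strand just downstream of the start, with its first printed base at position 3. The element was found for 21 of the 183 genes called higher with an entry (11.5%), for 0 of 46 called lower and for 3.83% of tested genes not called, against 3.99% of all promoters in the table. Of the called interferon-stimulated genes 13 had an entry and 8 of these held the element, while 23 of the 46 tested members with an entry did.

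Of 29 tested immediate early and AP-1 factors, the first genes transcribed after a stimulus, 4 were called higher (13.8%, against 1.85% of all tested genes) and 0 lower: Egr1, Atf3, Fosl2 and Mafk. With 1 library left out 1 to 2 of the 29 passed, and on the 6 libraries alone 15 did, against 8.82% of all genes tested there. Egr1, a zinc-finger immediate early factor, had 57.5, 61.1 and 57.9 CPM at 10 µg, against 42, 42.1 and 40.5 CPM at 1 µg (0.50 ± 0.11, adjusted p = 0.0339). It did not pass whichever 1 of the 6 libraries was left out (adjusted p from 0.0841 to 0.139). Of the 15 other fits 7 lost the call, these 6 and that without a filter on low counts (adjusted p = 0.0676). Atf3, a stress-induced repressor of inflammatory genes, had 129, 131 and 126 CPM at 10 µg, against 109, 112 and 101 CPM at 1 µg (0.26 ± 0.05, adjusted p = 0.00786) and did not pass without 10 µg replicate 2 or 1 µg replicate 3 (adjusted p from 0.0565 to 0.0848). Mafk, a small MAF protein, changed by 0.24 ± 0.05, adjusted p = 0.0088 and did not pass without 10 µg replicate 1 or 3 or 1 µg replicate 2 (adjusted p from 0.055 to 0.0863). Fosl2, a FOS family member, changed by 0.31 ± 0.08, adjusted p = 0.0423 and did not pass whichever 1 of the 6 libraries was left out (adjusted p from 0.0924 to 0.168). Of 17 tested MAP kinase phosphatase and Sprouty-related genes, Dusp4 (0.21 ± 0.05, adjusted p = 0.0369) and Dusp18 (0.31 ± 0.08, adjusted p = 0.0376) were called higher (11.8% of the list). Neither passed with a library left out: Dusp4 failed whichever 1 of the 6 libraries was left out (adjusted p from 0.11 to 0.177), and Dusp18 whichever 1 of the 6 libraries was left out (adjusted p from 0.0822 to 0.174).

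Regulators of G-protein signalling moved in both directions. Rgs16, which shortens signalling from chemokine and other G-protein coupled receptors, had 16.3, 15.1 and 14.8 CPM at 10 µg, against 8.8, 7.86 and 7.46 CPM at 1 µg, and 8.39, 6.25 and 6.31 CPM in untreated cells (0.94 ± 0.16, adjusted p = 0.00152). The call for Rgs16 passed whichever 1 of the 6 libraries was left out. Rgs1 was also higher (0.24 ± 0.05, adjusted p = 0.0117) and did not pass without 10 µg replicate 1 or 2 or 1 µg replicate 1 or 3 (adjusted p from 0.0539 to 0.0968). Rgs18 was lower, with 12.7, 11.8 and 11.3 CPM at 10 µg, against 16.8, 16 and 14.8 CPM at 1 µg (−0.41 ± 0.10, adjusted p = 0.0311), and did not pass without 10 µg replicate 1, 2 or 3 or 1 µg replicate 1 or 2 (adjusted p from 0.0537 to 0.169). Of the 10 genes of this family tested, 2 were called higher (20%, against 1.85% of all tested genes) and 1 lower (10%, against 0.492%).

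Pmepa1, a target of TGF-β that restrains SMAD signalling, had 115, 118 and 106 CPM at 10 µg, against 59.8, 68.9 and 65.9 CPM at 1 µg, and 57.5, 51.1 and 55.3 CPM in untreated cells (0.80 ± 0.09, adjusted p = 0.000138). The 24 tested TGF-β and SMAD feedback genes had a median of −0.01. Pmepa1 was 1 of 3 called higher among them (12.5%, against 1.85% of all tested genes). The others were Tgif1, a SMAD corepressor (0.23 ± 0.05, adjusted p = 0.00586), and Bmpr1a, a BMP receptor (0.21 ± 0.05, adjusted p = 0.0355). Pmepa1 passed whichever 1 of the 6 libraries was left out, whereas Tgif1 did not pass without 10 µg replicate 2 or 1 µg replicate 2 (adjusted p from 0.0514 to 0.0549) and Bmpr1a whichever 1 of the 6 libraries was left out (adjusted p from 0.0719 to 0.214). Il13ra2, the decoy receptor for interleukin-13, had 154, 140.3 and 138 CPM at 10 µg, against 90.7, 90.8 and 82.2 CPM at 1 µg, and 76.1, 83.9 and 77.8 CPM in untreated cells. Its change of 0.71 ± 0.06, adjusted p = 4.69e-07 passed whichever 1 of the 6 libraries was left out, and the 10 µg libraries stood above both other groups. Il7r, the interleukin-7 receptor, had 96, 98.7 and 92.9 CPM at 10 µg, against 56.7, 67.8 and 61.6 CPM at 1 µg (0.63 ± 0.09, adjusted p = 0.000674). Marcksl1, an actin-regulating substrate of protein kinase C, had 203, 212 and 214 CPM at 10 µg, against 133, 140.2 and 134 CPM at 1 µg (0.63 ± 0.09, adjusted p = 0.000953). Tbc1d9, a GTPase-activating protein of the RAB type, had 15.6, 15 and 16.7 CPM at 10 µg, against 10.6, 11 and 8.94 CPM at 1 µg (0.63 ± 0.10, adjusted p = 0.000837). All 3 were called higher and passed whichever 1 of the 6 libraries was left out.

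The remaining members of the 15 largest rises were Clip4, Ccbe1 and Cyp2s1, all at low levels. Clip4, a microtubule-binding protein, had 6.3, 5.62 and 6.9 CPM at 10 µg, against 3.15, 4.35 and 3.97 CPM at 1 µg (0.71 ± 0.17, adjusted p = 0.0229) and did not pass without 10 µg replicate 1, 2 or 3 or 1 µg replicate 1 or 3 (adjusted p from 0.0502 to 0.19). Ccbe1, a secreted factor of lymphatic development, changed by 0.64 ± 0.13, adjusted p = 0.00519 and did not pass without 10 µg replicate 2 (adjusted p = 0.0539). Cyp2s1, a cytochrome P450, changed by 0.63 ± 0.14, adjusted p = 0.0121 and did not pass without 10 µg replicate 1 or 2 or 1 µg replicate 1 or 2 (adjusted p from 0.0537 to 0.0902). Olr1, the oxidised LDL receptor LOX-1, had a larger fitted change at a level of about 1 CPM, with 1.11, 1.07 and 1.3 CPM at 10 µg, against 0.213, 0.3 and 0.212 CPM at 1 µg (2.23 ± 0.47, adjusted p = 0.0077). It did not pass without 1 µg replicate 1 or 3 (adjusted p from 0.0576 to 0.0645).

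Surface and secreted proteins of activated macrophages were among the genes that held. Of 16 tested co-stimulatory and checkpoint ligands, 2 were called higher (12.5%, against 1.85% of all tested genes) and 0 lower. The list's median was 0.21. Cd83, a surface marker of activated antigen-presenting cells, had 54.3, 56.5 and 59.5 CPM at 10 µg, against 37.8, 39.9 and 35.8 CPM at 1 µg, and 36.5, 36.4 and 38 CPM in untreated cells (0.58 ± 0.06, adjusted p = 1.64e-06). Icam1, an adhesion molecule for leukocyte integrins, had 140.3, 143 and 142 CPM at 10 µg, against 121, 118 and 118 CPM at 1 µg (0.25 ± 0.05, adjusted p = 0.00575). The 1 µg libraries overlapped with untreated cells for both genes, and the 10 µg libraries stood above. Plau, the urokinase plasminogen activator, had 784, 783 and 782 CPM at 10 µg, against 543, 536 and 514 CPM at 1 µg, and 460.2, 474 and 497 CPM in untreated cells (0.56 ± 0.09, adjusted p = 0.00156). It was the only 1 called of 15 tested matrix protease and plasminogen activator genes (6.67%). Cd83, Icam1 and Plau passed whichever 1 of the 6 libraries was left out.

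Of 18 tested osteoclast differentiation genes 3 were called higher (16.7%, against 1.85% of all tested genes) and 1 lower (5.56%, against 0.492%). The list's median was 0.16. Nfatc1, the master factor of osteoclast formation, had 361, 373 and 354 CPM at 10 µg, against 263, 273 and 256 CPM at 1 µg, and 252, 229 and 247 CPM in untreated cells (0.46 ± 0.06, adjusted p = 2.67e-05). Src, a kinase that osteoclasts need for resorption, had 46.2, 42.5 and 47 CPM at 10 µg, against 32.2, 30.1 and 31.6 CPM at 1 µg (0.53 ± 0.07, adjusted p = 0.000138). Both were called higher and passed whichever 1 of the 6 libraries was left out. Atp6v0d2, a proton pump subunit used in cell fusion, changed by 0.26 ± 0.06, adjusted p = 0.0215 and did not pass without 10 µg replicate 1, 2 or 3 or 1 µg replicate 1 or 3 (adjusted p from 0.0534 to 0.148). Among 24 tested macrophage identity genes, 2 were called higher (8.33%) and 2 lower (8.33%). Fcgr2b, the inhibitory Fc receptor, had 80.7, 83.1 and 79.4 CPM at 10 µg, against 66, 69.9 and 61.4 CPM at 1 µg (0.30 ± 0.05, adjusted p = 0.00128) and passed whichever 1 of the 6 libraries was left out. Itgax, an integrin subunit (CD11c), was higher by 0.39 ± 0.09, adjusted p = 0.0117 and did not pass without 10 µg replicate 3 or 1 µg replicate 3 (adjusted p from 0.0669 to 0.108).

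In the metabolic lists, genes of glucose and cholesterol metabolism were called higher. Of 24 tested glycolysis genes 2 were called higher (8.33%, against 1.85% of all tested genes) and 0 lower: Slc2a1, the glucose transporter GLUT1, with 255, 271 and 260.2 CPM at 10 µg, against 208, 198 and 206 CPM at 1 µg (0.36 ± 0.07, adjusted p = 0.00575), and Eno2, an enolase, with 44.4, 45.2 and 43.9 CPM at 10 µg, against 27, 30.4 and 34.2 CPM at 1 µg (0.54 ± 0.08, adjusted p = 0.000132). Both passed whichever 1 of the 6 libraries was left out, and the list's median was 0.03. On the 6 libraries alone 5 of the 24 were called, against 8.82% of all genes tested there. Abcg1, a cholesterol exporter controlled by LXR, had 60.1, 63.1 and 62.6 CPM at 10 µg, against 46.6, 48 and 50.3 CPM at 1 µg (0.36 ± 0.06, adjusted p = 0.00136) and passed likewise. It was the only 1 called higher of 13 tested LXR target and cholesterol efflux genes (7.69%, against 1.85% of all tested genes). Lpl, of the same list, was called lower (7.69%, against 0.492%), and the list's median was 0.04. In cholesterol synthesis and uptake, 27 of 29 tested genes had a log2 fold change above 0, against 50.1% of all tested genes. The list's median was 0.10, and 2 were called higher (6.90%). With 1 library left out 0 to 3 of the 29 passed, and on the 6 libraries alone 14 did, against 8.82% of all genes tested there. Insig1, a sterol sensor of the pathway, changed by 0.29 ± 0.06, adjusted p = 0.0129 and Mvd, an enzyme of it, by 0.27 ± 0.06, adjusted p = 0.00999. Insig1 did not pass without 10 µg replicate 2 or 3 or 1 µg replicate 1 or 2 (adjusted p from 0.0637 to 0.0999), nor Mvd without 10 µg replicate 3 or 1 µg replicate 2 (adjusted p from 0.0984 to 0.115). Of the fatty acid genes, Cd36, a fatty acid and lipoprotein receptor, was lower, with a log2 fold change of −0.29 ± 0.07, adjusted p = 0.0325, and did not pass whichever 1 of the 6 libraries was left out (adjusted p from 0.0693 to 0.17). Lpl, lipoprotein lipase, had 2103, 2001 and 2005 CPM at 10 µg, against 2512, 2461 and 2382 CPM at 1 µg (−0.27 ± 0.06, adjusted p = 0.0127), and did not pass without 10 µg replicate 2 or 3 or 1 µg replicate 1 or 2 (adjusted p from 0.0641 to 0.0892). Called genes that took many counts included Hmga2, a chromatin protein, with 1000.1, 1004 and 979 CPM at 10 µg, against 779.6, 779 and 803 CPM at 1 µg (0.34 ± 0.06, adjusted p = 0.000997, passing whichever 1 of the 6 libraries was left out). Tns3, a focal adhesion protein, had 944, 963 and 970.0 CPM at 10 µg, against 795, 807 and 793 CPM at 1 µg (0.26 ± 0.05, adjusted p = 0.00725).

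The genes lower at 10 µg were fewer and moved less. Among the 15 with the largest falls, Pmaip1, St3gal5, Clec7a, Niban1 and Nfam1 passed whichever 1 of the 6 libraries was left out. Pmaip1 (NOXA, a pro-death member of the BCL2 family and a p53 target) had 21.9, 20.3 and 19.9 CPM at 10 µg, against 26.8, 28.2 and 31.1 CPM at 1 µg, and 26.8, 26 and 28.6 CPM in untreated cells (−0.47 ± 0.09, adjusted p = 0.00213). St3gal5, the sialyltransferase that makes ganglioside GM3, had 203, 215 and 209 CPM at 10 µg, against 278, 282 and 268 CPM at 1 µg, and 288, 276 and 294 CPM in untreated cells (−0.40 ± 0.06, adjusted p = 0.000491). The 1 µg libraries of both genes overlapped with untreated cells, and the 10 µg libraries lay below them. Clec7a (dectin-1, the receptor for fungal β-glucan) had 29.5, 28.4 and 28.9 CPM at 10 µg, against 39.5, 35.6 and 37 CPM at 1 µg (−0.37 ± 0.07, adjusted p = 0.00156). Niban1, a stress-related protein, had 126, 129 and 121 CPM at 10 µg, against 155, 166 and 159 CPM at 1 µg (−0.36 ± 0.06, adjusted p = 0.000997), and Nfam1, an ITAM-bearing receptor, had 219, 226 and 225 CPM at 10 µg, against 278, 271 and 272 CPM at 1 µg (−0.29 ± 0.06, adjusted p = 0.0057). No library at 10 µg reached the lowest at 1 µg in any of the 5, which the rule for naming them required.

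The 20 tested C-type lectin and CD300 receptors had a median of −0.09. Of these, 2 were called lower (10%, against 0.492% of all tested genes) and 0 higher. Besides Clec7a this was Clec4a3, an ITIM-bearing lectin, with 10.2, 9.34 and 10.2 CPM at 10 µg, against 14.9, 15.3 and 12.2 CPM at 1 µg (−0.51 ± 0.11, adjusted p = 0.0101), which did not pass without 10 µg replicate 2 or 1 µg replicate 1 or 2 (adjusted p from 0.0698 to 0.0898). The rest of the 15 largest falls held less firmly. Among them were Arrdc3 (an arrestin-like protein, −0.47 ± 0.12, adjusted p = 0.0311), Gpr85 (an orphan receptor, −0.47 ± 0.12, adjusted p = 0.0382) and Cysltr1 (a cysteinyl leukotriene receptor, −0.37 ± 0.10, adjusted p = 0.0357). Arrdc3 did not pass without 10 µg replicate 2 or 3 or 1 µg replicate 2 or 3 (adjusted p from 0.107 to 0.19), Gpr85 without 10 µg replicate 2 or 3 or 1 µg replicate 1, 2 or 3 (adjusted p from 0.0744 to 0.193), and Cysltr1 whichever 1 of the 6 libraries was left out (adjusted p from 0.0744 to 0.193). Capn5, a calpain, changed by −0.32 ± 0.07, adjusted p = 0.008 and did not pass without 10 µg replicate 2 or 1 µg replicate 2 (adjusted p from 0.0531 to 0.0725). Hacd4, an enzyme of very long fatty acid synthesis, changed by −0.38 ± 0.10, adjusted p = 0.0428 and did not pass whichever 1 of the 6 libraries was left out (adjusted p from 0.0788 to 0.203).

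Of 15 tested BCL2 family members, Bcl2l1 (BCL-XL) and Mcl1, both pro-survival, were called higher (13.3%, against 1.85% of all tested genes). Pmaip1 was called lower (6.67%, against 0.492%). The list's median was −0.03, and 10 of the 15 members lay below 0. Bcl2l1 had 162, 174 and 172 CPM at 10 µg, against 147, 148 and 143 CPM at 1 µg (0.21 ± 0.05, adjusted p = 0.0129), and Mcl1 had 1015, 1001 and 1002 CPM at 10 µg, against 890.3, 892 and 859 CPM at 1 µg (0.19 ± 0.05, adjusted p = 0.0209). Bcl2l1 did not pass without 10 µg replicate 2 or 3 or 1 µg replicate 1 or 3 (adjusted p from 0.067 to 0.107), nor Mcl1 whichever 1 of the 6 libraries was left out (adjusted p from 0.0725 to 0.13). Inflammasome genes were mixed: of 15 tested, Nlrp3 (0.23 ± 0.06, adjusted p = 0.0466), a sensor, and Casp4 (0.35 ± 0.09, adjusted p = 0.0488), the caspase that senses lipopolysaccharide in mouse cells, were higher (13.3%). Txnip (−0.22 ± 0.06, adjusted p = 0.0489), a thioredoxin-binding protein, was lower (6.67%). Each of the 3 failed whichever 1 of the 6 libraries was left out, with adjusted p from 0.117 to 0.213 for Nlrp3, 0.0825 to 0.235 for Casp4 and 0.0892 to 0.225 for Txnip.

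Most cell cycle genes had values slightly below 0. Of 61 tested mitosis genes 2 were called lower (3.28%, against 0.492% of all tested genes) and 0 higher. A log2 fold change below 0 was found for 58, while 50.1% of all tested genes lay above 0, and the median was −0.12. The called genes were Spc24, a kinetochore subunit (−0.30 ± 0.08, adjusted p = 0.0422), and Ube2c, a ubiquitin-conjugating enzyme of mitotic exit (−0.19 ± 0.05, adjusted p = 0.0414). Spc24 did not pass without 10 µg replicate 1, 2 or 3 or 1 µg replicate 1 or 2 (adjusted p from 0.0942 to 0.26), nor Ube2c whichever 1 of the 6 libraries was left out (adjusted p from 0.0612 to 0.216). Of 53 DNA replication genes edgeR called 0, DESeq2 2 and limma-voom 0. In edgeR 10 had an unadjusted p under 0.05, against 1573 of all 12401 tested genes. Of the 53, 45 were below 0, and the median was −0.08. On the 6 libraries alone 21 mitosis and 12 replication genes were called, against 8.82% of all genes tested there. The mitosis and replication libraries did not overlap, with 10 µg below, for 38 of the 61 genes and 26 of the 53, against 11.4% of all tested genes. EdgeR called 0 members among 75 cytosolic ribosomal proteins (median −0.01), 50 ribosome biogenesis genes (median 0.01), 67 nuclear oxidative phosphorylation genes (median −0.04) or 35 lysosome genes (median 0.03). Their counts at an unadjusted p under 0.05 were 1 ribosomal protein, 3 ribosome biogenesis, 5 oxidative phosphorylation and 5 lysosome genes, against 1573 of all 12401. DESeq2 called 1 oxidative phosphorylation gene and limma-voom 0 in these 4 lists. On the 6 libraries alone 0 ribosomal protein, 1 ribosome biogenesis, 3 oxidative phosphorylation and 4 lysosome genes were called, against 8.82% of all genes tested there.

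**Figure D3:**
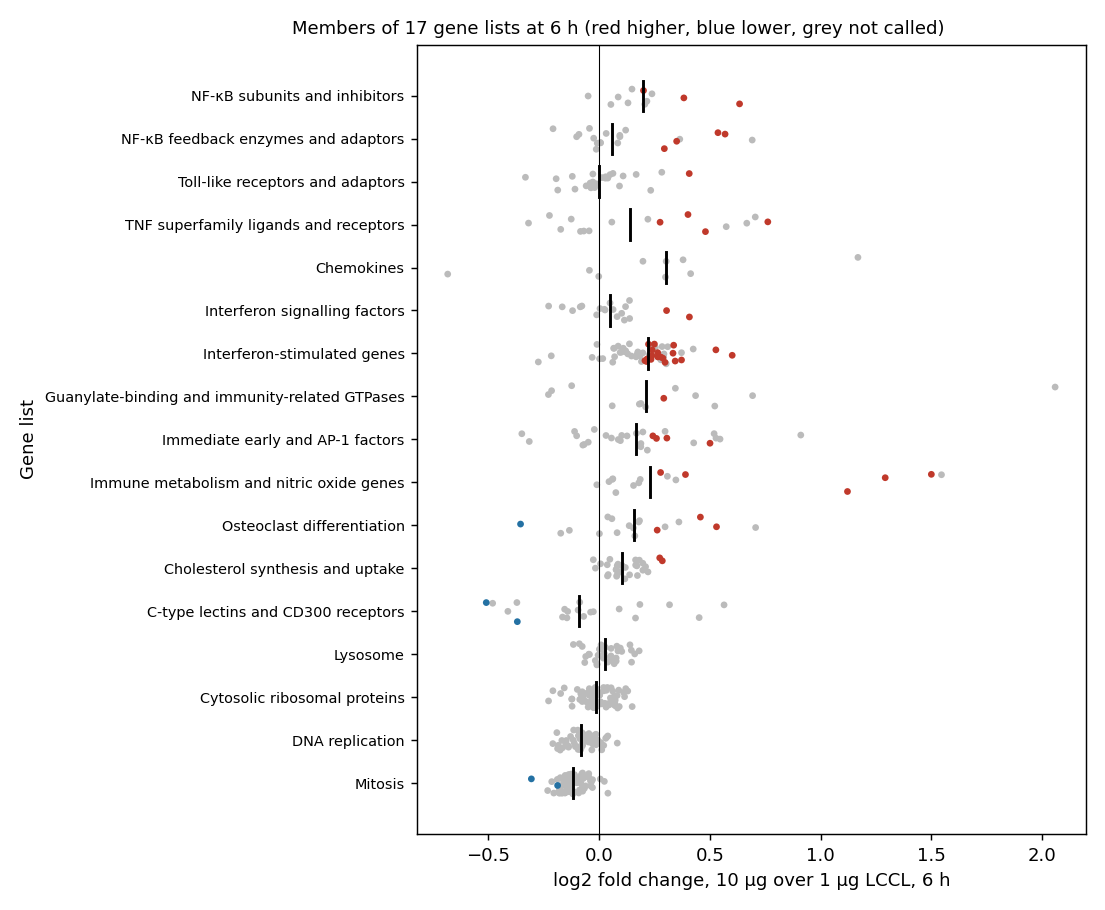
Log2 fold change of 10 µg over 1 µg at 6 h (horizontal axis) of the tested members of 17 gene lists, 1 point per gene, red where called higher, blue where called lower and grey where not called; the black tick is the list's median. The 57 interferon-stimulated genes centre on 0.22, while the mitosis genes centre on −0.12 in a narrow band.

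The same doses were compared after 24 h in 6 other libraries. At that time 4383 genes were called (35.3% of tested genes), 1988 higher (16%) and 2395 lower (19.3%). Of the 230 genes higher at 6 h, 131 (57.0%) were also called higher at 24 h, where they made up 6.59% of the higher genes, and 29 were called lower. Of the 61 genes lower at 6 h, 34 (55.7%) were called lower at 24 h, 1.42% of the lower genes there, and 6 were called higher. Whether the dose difference itself differed between the times was tested as an interaction, which was called for 2307 genes (18.6%), 1367 towards a larger value at 6 h (11%) and 940 towards a larger value at 24 h (7.58%), among them 118 of the 230 and 29 of the 61.

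Some genes differed by dose at 6 h and at 24 h alike. Cd83 changed by 0.59 ± 0.06 at 24 h (adjusted p = 5.83e-09), Irak2 by 0.45 ± 0.05 (adjusted p = 7.55e-08) and Tnfaip3 by 0.50 ± 0.08 (adjusted p = 1e-05), all called and all close to their 6 h values. The interaction did not pass for these 3 genes (adjusted p = 0.965 for Cd83, 0.758 for Irak2 and 0.707 for Tnfaip3), nor for Plau, which changed by 0.44 ± 0.09 at 24 h (interaction adjusted p = 0.575). Hal and Il7r differed more at the later time, by 1.97 ± 0.11 and 1.66 ± 0.09, with interaction adjusted p-values of 0.000635 for Hal and 2.28e-05 for Il7r.

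Another group of genes was higher at 10 µg after 6 h and lower after 24 h. Gpr84 changed by −0.51 ± 0.10 at 24 h (adjusted p = 0.00041), against 0.70 ± 0.09 at 6 h, and the interaction had an adjusted p of 6.63e-06. Marcksl1 changed by −0.58 ± 0.10 (adjusted p = 0.00016) and Nfatc1 by −0.39 ± 0.06 (adjusted p = 1.02e-05) at 24 h, both called lower there. Among the interferon-stimulated genes, the calls lay mostly on the other side at the later time. At 24 h 4 of the 57 were called higher and 33 lower, against 16% and 19.3% of all tested genes, with a median of −0.24. The interaction was called for 36, all 36 towards a larger value at 6 h, against 11% of all tested genes. Mx2, for example, changed by −0.61 ± 0.12 at 24 h (adjusted p = 0.000168; interaction adjusted p = 3.73e-06). Acod1 and Tnf were not called at 24 h, with −0.54 ± 0.31 for Acod1 and −0.20 ± 0.14 for Tnf, and their interactions passed at 0.00598 and 0.00644. In the other direction, Clec7a, lower at 6 h, was higher at 24 h by 0.24 ± 0.06 (adjusted p = 0.00163; interaction adjusted p = 2.45e-05).

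Cell cycle and lysosome genes were called far more often at 24 h than at 6 h. Of 61 mitosis genes 58 were lower at 24 h (median −0.46), and of 53 DNA replication genes 48 were (median −0.61), against 19.3% of all tested genes. The interaction was called for 47 of the mitosis and 42 of the replication genes, against 18.6% of all tested genes. Of 35 lysosome genes 29 were higher and 1 lower at 24 h (median 0.39), against 16% and 19.3% of all tested genes, and 27 had a called interaction. Of 75 cytosolic ribosomal proteins, by contrast, 3 were lower and 0 higher at 24 h, and of 67 oxidative phosphorylation genes 8 were lower and 1 higher, against 35.3% of all tested genes called. The NF-κB inhibitor and feedback lists, 31 genes in all, had 11 called interactions, against 18.6% of all tested genes.

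**Figure D4:**
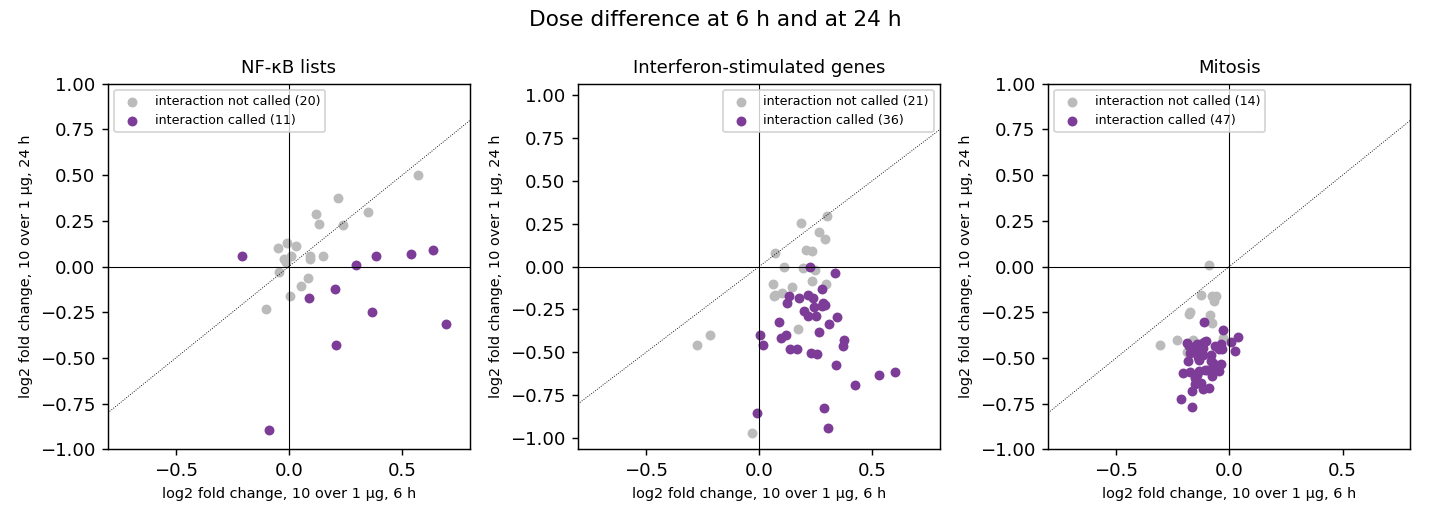
Log2 fold change of 10 µg over 1 µg at 24 h (vertical axis) against that at 6 h (horizontal axis) for the tested genes of the NF-κB lists, the interferon-stimulated genes and the mitosis genes, purple where the interaction was called; the dotted line marks equal values. Most interferon-stimulated genes lie right of 0 and below 0, and mitosis genes lie near 0 at 6 h and below it at 24 h.

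In the GENCODE M21 annotation, exons of Gpr84, Rgs16, Slfn5, Icam1, Tbc1d9, Irak2, Usp18, Fcgr2b, Hmga2, Slc2a1, Cyp2s1, Ube2c, Tnfsf9, Hacd4, Mafk, Txnip and Cxcl10 overlap a gene on the opposite strand, as do exons of Bmpr1a, Ccbe1, Parp9, Csf1r and Ccr9. Exons of Itgam, Parp14, Rtp4 and Ccr9 overlap another gene on the same strand. The strand setting of the counting is not given in the sources used here, so reads from the overlapped stretch may come from either gene.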

How the data were processed

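RNA was sequenced from 15 libraries of RAW264.7 cells. Per the labels' protocols, total RNA was extracted with TRIzol, cleaned with an RNeasy kit and used for stranded mRNA libraries (TruSeq). What the authors deposited is a single table of integer counts, 1 row per gene symbol and 1 column per library. The submitters' processing notes name GRCm39; aligner, counter, annotation and strand setting: not given in the sources used here.

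In R 4.3.3, edgeR 4.0.16 fitted all 15 libraries together (TMM scaling, filterByExpr at defaults, glmQLFit in its robust form, 1 coefficient per group), so that the 5 groups shared 1 estimate of spread over 10 residual degrees of freedom. The 12401 genes kept held 99.97% of counts, and the common biological coefficient of variation was 5.68%. Contrasts were tested two-sided with glmQLFTest, with Benjamini-Hochberg adjustment over all genes tested; the SE is the size of the log2 fold change over the square root of F. The steps were tested on simulated data. Library totals across the series were 19085148 to 22434642 counts.

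Named genes were the 15 largest called changes each way (at least 5 CPM, no overlap between doses, no predicted-gene names), 16 core genes, up to 4 called members of each of 52 gene lists with the smallest p, and the 5 called genes each way with the most counts; all called interferon-stimulated genes and Odc1 were added after their values were seen. Some genes that the rule picks are not reported here. The comparison and the lists were chosen with earlier results of these data known. Alternatives used DESeq2 1.42.0, limma 3.58.1, other scalings and filters, a replicate block and left-out libraries. Replicate numbers are shared by the titles, but same-numbered libraries at 6 h deviated together with correlations of only 0.0085 to 0.056, so the numbers were not used as pairs. Replicates of a group differed by more than sampling noise.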

Additional observations from a re-analysis of the deposited data

Results flagged for a closer look

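The dose difference (log2 of 10 µg over 1 µg) was tested for a change between 6 h and 24 h, and the interaction passed an adjusted p under 0.05 for 62 of the genes named above. Values in parentheses are the difference at 6 h minus that at 24 h on the log2 scale, from edgeR's quasi-likelihood test. These values are signed, so a positive one also arises where the dose difference was reversed at 24 h. Mx2, for example, changed by 0.60 at 6 h and −0.61 at 24 h. Among inflammatory and metabolic genes the value was positive for Acod1 (2.04), Arg1 (1.71), Tnf (0.97), Tnfsf9 (0.37), Cxcl10 (1.24), Nlrp3 (0.84), Sod2 (0.27), Odc1 (0.56), Icam1 (0.34) and Il13ra2 (0.29). From the NF-κB lists, Nfkbiz (0.54), Zc3h12a (0.47), Nfkbie (0.33), Nfkbia (0.32) and Birc3 (0.29) also had positive values. Interferon-related genes with positive values were Mx2 (1.22), Ifit3 (1.16), Ifit1 (0.91), Oasl2 (0.80), Rtp4 (0.65), Xaf1 (0.64), Parp14 (0.54), Trim30a (0.50), Ifi44 (0.48), Ifih1 (0.42), Ddx58 (0.41), Parp9 (0.38), Ifi204 (0.37), Irgm1 (0.31), Stat2 (0.30) and Oas1g (0.23). Among signalling genes and transcription factors the same held for Rgs16 (1.27), Gpr84 (1.21), Marcksl1 (1.21), Egr1 (1.20), Pmepa1 (1.00), Nfatc1 (0.84) and Fosl2 (0.45). Lpl (0.56) and Ube2c (0.23) were lower at 10 µg at both times and lower by more at 24 h. Macrophage markers that were not called at 6 h had values of Csf1r (0.69), Cd14 (0.50), Itgam (0.41), Lyz2 (0.34), Cd68 (−0.43) and Fcgr1 (−0.69). The rise at 10 µg was larger at 24 h for Hal (−0.84), Il7r (−1.04), Atp6v0d2 (−1.57), Ccbe1 (−0.97), Atf3 (−0.54), Itgax (−0.50), Eno2 (−0.46), Dusp4 (−0.44), Casp4 (−0.41), Rgs1 (−0.39) and Tgif1 (−0.33). Genes lower at 10 µg after 6 h had negative values for Capn5 (−0.72), Clec7a (−0.61), Niban1 (−0.51), Rgs18 (−0.45) and Txnip (−0.30).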

How the results depend on the processing

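The count of 291 genes between doses at 6 h ranged from 259 (limma-voom) to 356 (DESeq2) over the other scalings, filters and tools with all 15 libraries. On the 6 libraries alone it was 1044; the filter then kept 11832 genes, and the cause was not tested. Leaving out 1 library gave 111 to 163 calls at 6 h, 3581 to 4458 at 24 h and 1764 to 2723 for the interaction, with fewer samples in each. With the replicate number as a block, 213 genes were called higher and 52 lower at 6 h, 4291 were called at 24 h and 2252 for the interaction. At 6 h the correlation of deviations was 0.0085 for replicate 1, 0.056 for replicate 2 and 0.015 for replicate 3, too low to pair the libraries. Of the 96 named genes that were called, 37 passed whichever library was left out and 0 reversed. Named calls lost were 15 with limma-voom, 11 with the block, 9 with library totals alone, 7 without the robust fit, 5 without a filter, 4 with DESeq2's size factors, 2 with DESeq2 and 1 with a minimum of 5 CPM; the cause was not tested. Fewer low genes were called: 0.798% of the genes in the lowest tercile by mean CPM were called, against 4.21% in the highest tercile, and their median SE was 0.20 and 0.054; the part of depth in this was not tested.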
